A study of Mus musculus with 12 samples.

Results

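The genes described here were p53 itself (*Trp53*), its inhibitors *Mdm2* and *Mdm4*, and 7 genes that p53 is known to switch on, namely *Ccng1*, *Trp53inp1*, *Phlda3*, *Sesn2*, *Zmat3*, *Aen* and *Btg2*. These 10 genes were taken by name from the 46103 genes listed in 12 RNA-seq libraries of mouse leukemia cells, with numbered copies of a gene summed, and all 10 passed the filter of at least 1 RPKM (reads scaled to gene length and library total) in at least 3 libraries, as 10072 genes did. *Phlda3* passed it through exactly 3 libraries and *Zmat3* through 4. The leukemia was a chronic myeloid leukemia (CML)-like disease of C57BL/6 mice, made with bone marrow of 5FU-treated G0M mice in which a retrovirus drove the fusion kinase BCR-ABL1, given to lethally irradiated recipients together with normal helper marrow. G0M is a reporter in the Rosa26 locus, a fluorescent fusion with a p27 mutant that cannot inhibit its kinases, which Vav1-Cre turns on in blood cells and which marks quiescent cells. The sorted cells were BCR-ABL1+ CD27+ LSK cells (lineage-negative, Sca-1+, c-Kit+) of bone marrow and spleen, 100 cells per library, and all 4 groups carried BCR-ABL1, the reporter and Vav1-Cre. DP cells were G0M+ and SP cells G0M- from vehicle-treated mice, whereas IMDP cells were G0M+ and IMSP cells G0M- from mice given the ABL kinase inhibitor imatinib once daily by gavage. There were 3 libraries per group, numbered below as DP1 to DP3 and so on. Nothing in the labels says whether libraries of a group came from separate mice, so the p-values measure the spread between these libraries, which may in part be technical.

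p53 is a transcription factor that stress, above all DNA damage, stabilises. MDM2 marks it for destruction and MDM4 blocks its activating domain, and p53 in turn switches on *Mdm2*, which closes a feedback loop. Most of this control acts on the protein, so the mRNA level of *Trp53* says little about p53 activity, and target mRNAs are often read in its place. In blood-forming cells p53 is known for holding stem cells in quiescence and for removing damaged progenitors. Its targets also answer to other factors: *Btg2* is an immediate-early gene as well, and FOXO factors act on *Trp53inp1* and *Sesn2* in some cells.

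p53 binds pairs of a 10-base half-site. The half-site was sought in the RefSeq promoter windows (GRCm38.p6, 250 bases before to 50 bases after each start), where its pattern reads the same on both strands, and 8.36% of all 32851 windows held a copy. Of the 10 members, 8 had a window and 4 of these held a half-site (*Ccng1*, *Mdm2*, *Trp53* and *Aen*), while the windows of *Mdm4*, *Btg2*, *Phlda3* and *Sesn2* did not. *Zmat3* and *Trp53inp1* were not matched. The 4 stretches are shown because they are the places near a start where these members hold the motif, and the capitals mark the half-site or, for *Ccng1*, the half-site pair. The *Ccng1* stretch lies at chr11:40755422-40755521 (minus strand), with its pair of adjoining half-sites beginning 195 bases before the start and differing from the pattern by 1 mismatch. A pair of this kind, with at most 1 mismatch, was found in 0.0883% of windows. The *Mdm2* stretch is chr10:117710910-117710969 (minus strand; site from 186 bases before the start) and the *Trp53* stretch is chr11:69580259-69580318 (plus strand; site from 75 bases before the start). The *Aen* stretch, chr7:78895927-78895956 (plus strand), holds its half-site 10 bases past the first of the 2 RefSeq starts and 121 bases before the second. A match of letters is no evidence of binding in these cells.
Ccng1: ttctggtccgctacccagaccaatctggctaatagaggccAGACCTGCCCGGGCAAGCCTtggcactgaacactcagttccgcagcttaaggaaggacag
Mdm2: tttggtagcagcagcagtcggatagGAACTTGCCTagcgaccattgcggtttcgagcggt
Trp53: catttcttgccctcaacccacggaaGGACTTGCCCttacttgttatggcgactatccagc
Aen: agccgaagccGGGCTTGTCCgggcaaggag

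The libraries held 11367631 to 20573779 reads by the RPKM steps, of which 25.9% to 37.1% fell on listed genes, so that 1 read on a 1-kb gene was worth 0.0486 to 0.0880 RPKM. The markers of the sort were present: *Kit*, *Ly6a* (Sca-1) and *Cd27* were detected in every library, and *Mki67*, a proliferation gene, was at 14.7 ± 5.70 RPKM in DP and 54.2 ± 3.42 in SP (SD, n = 3). Summed over 11 proliferation genes, the level was 43.7 to 112 RPKM in DP against 308 to 330 in SP, and 25.3 to 46.4 in IMDP against 275 to 383 in IMSP. Mast cell and basophil markers summed to 76.3 to 329 RPKM in DP, 10.5 to 23.0 in SP, 14.9 to 194 in IMDP and 7.92 to 24.4 in IMSP, with *Tpsab1* at 0 throughout. Erythroid markers summed to 201 to 268 RPKM in DP, 54.5 to 148 in SP, 58.4 to 483 in IMDP and 10.7 to 72.9 in IMSP, and the B cell genes *Ms4a1*, *Ebf1* and *Pax5* were at 0 throughout. Macrophage markers were at 10.0 to 22.1 RPKM in DP, 3.85 to 9.15 in SP, 20.5 to 24.3 in IMDP and 7.02 to 38.5 in IMSP, with 4 of 6 tested genes called higher in G0M+ cells averaged over treatments. Neutrophil and monocyte markers were at 78.4 to 1262 RPKM in DP, 349 to 2293 in SP, 98.6 to 277 in IMDP and 465 to 1925 in IMSP, with 2 of 6 called lower. The part of these lists in the population differences below was not tested. The sample descriptions number the libraries, with 1 to 6 all imatinib and 7 to 12 all vehicle, so treatment and library number cannot be told apart. Neighbouring numbers (1 with 2, and so on) join a G0M+ and a G0M- library of the same treatment into 6 pairs. Their deviations from the group means correlated across genes at 0.43 to 0.65 in each pair. A pair, IMDP2 (number 4) and IMSP2 (number 3), stood apart from the other imatinib libraries in several members. Many results that rest on it are given with and without it, while the shares of the spread are given only with it.

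Expressed per length, *Trp53* and *Btg2* were the most abundant members, with medians over the 12 libraries of 26.8 and 22.3 RPKM. *Mdm4* followed at 14.9 RPKM, then *Ccng1* at 7.98, *Aen* at 7.30 and *Mdm2* at 6.12. *Trp53inp1* (2.13 RPKM) and *Sesn2* (2.02) were low, and *Zmat3* (0.597) and *Phlda3* (0.409) were the lowest, on 49 to 568 reads per library for *Zmat3* and 0 to 50 for *Phlda3*. The steadiness of the genes differed too. Between the lowest and the highest library, *Trp53* spanned 1.71-fold and *Mdm4* 1.70-fold, whereas *Zmat3* spanned 12.9-fold and *Btg2* 20.3-fold.

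**Figure D1:**
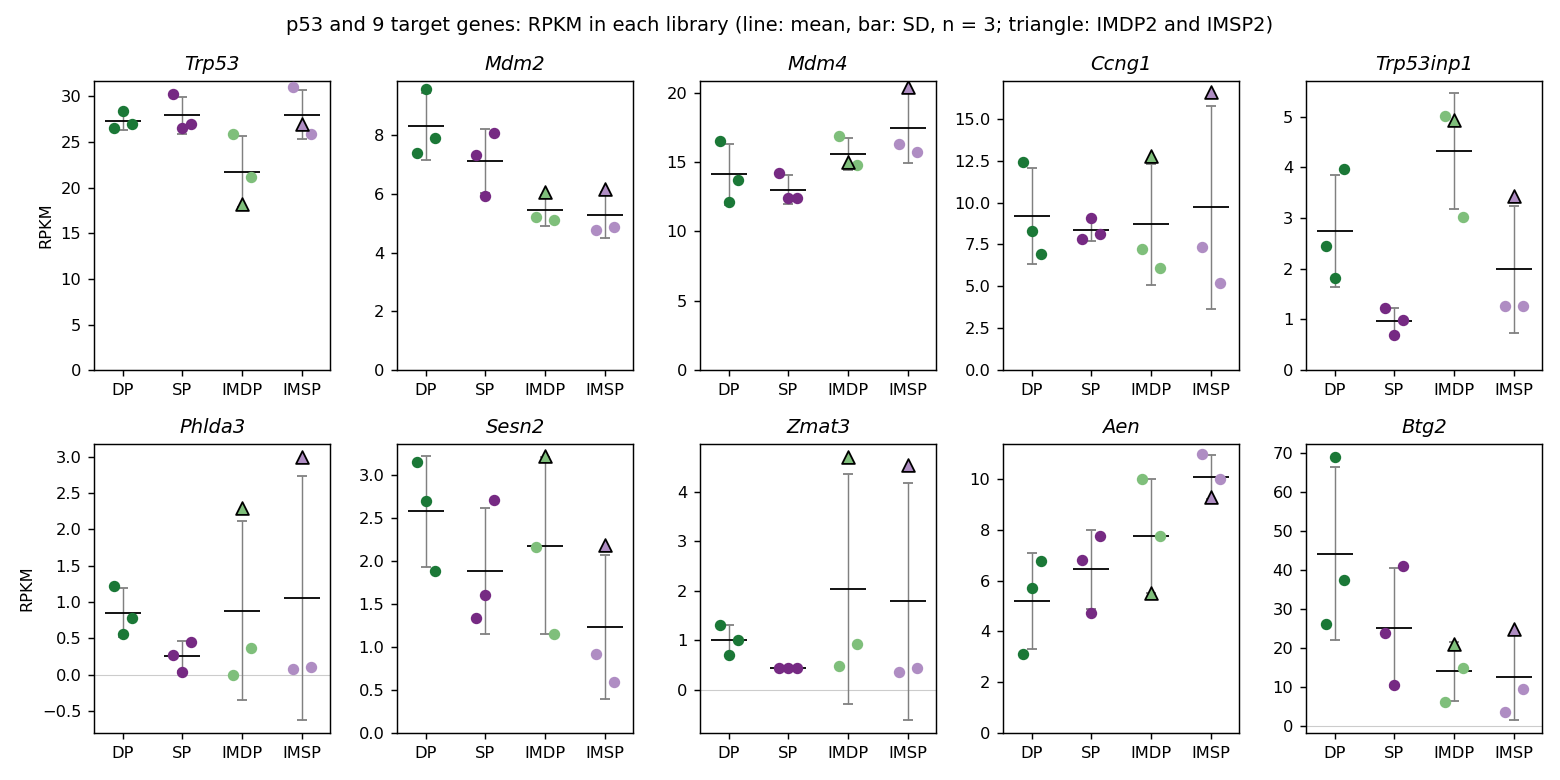
RPKM of the 10 genes in each library (y axis, linear; x axis, the 4 groups; points, libraries; line, mean; bar, SD, n = 3). The triangles, IMDP2 and IMSP2, are the highest imatinib libraries for Zmat3 (4.70 and 4.54 RPKM) and Phlda3 (2.29 and 3.00), and Trp53inp1 is higher in DP than in SP in every library.

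Differences below are on the log2(RPKM + 0.1) scale, the first group minus the second, from a limma fit over all 10072 genes with Benjamini-Hochberg adjusted p-values, and this scale understates changes of low genes.

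*Trp53* (chromosome 11, 69580359 to 69591873, GRCm38) was, with *Mdm4*, the steadiest gene of the set. It was at 26.5, 28.4 and 27.0 RPKM in DP1 to DP3 and at 30.2, 26.5 and 27.0 in SP1 to SP3. In IMDP1 to IMDP3 it was at 25.9, 18.2 and 21.1 RPKM, and in IMSP1 to IMSP3 at 31.0, 27.0 and 25.9. The 3 IMDP libraries were thus the lowest of the 12, though the highest of them and the lowest IMSP library both round to the same value. IMDP against IMSP differed by -0.37 on the log2 scale (SE 0.14, adjusted p = 0.0705), and the median of all genes tested in that comparison was -0.25, so most of the distance was shared with the typical gene. With library pair as a block the same difference passed the threshold (adjusted p = 0.0170), and so did that without IMDP1 (-0.51, adjusted p = 0.0152). DP and SP differed by -0.03 (95% interval -0.34 to 0.28). Each value rested on 617 to 1415 reads.

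*Mdm2* (chromosome 10, 117688875 to 117710758), both a target and the main inhibitor of p53, had lower means under imatinib in both populations. Its RPKM was 7.41, 9.59 and 7.91 in DP, 7.32, 5.93 and 8.09 in SP, 5.20, 6.06 and 5.10 in IMDP and 4.77, 6.18 and 4.87 in IMSP. DP and IMDP did not overlap, while the highest IMSP library exceeded the lowest SP library. Averaged over both populations the difference between imatinib and vehicle was -0.51 on the log2 scale (95% interval -0.76 to -0.25), which missed the threshold with an adjusted p of 0.0612. Without IMDP2 and IMSP2 it was -0.61 (adjusted p = 0.0297), and leaving out SP2 or IMSP2 alone also brought it past the threshold (adjusted p = 0.0482 and 0.0463).

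*Mdm4* (chromosome 1, 132959484 to 133030561), the second inhibitor, lay on the other side. Its RPKM was 16.5, 12.1 and 13.7 in DP and 14.2, 12.4 and 12.4 in SP, against 16.9, 15.0 and 14.8 in IMDP and 16.3, 20.4 and 15.7 in IMSP. All IMSP libraries were above all SP libraries, whereas DP1 was close to the top of the IMDP range. The imatinib difference averaged over populations was 0.28 (95% interval 0.05 to 0.52, adjusted p = 0.193). *Mdm4* and *Mdm2* therefore had averaged imatinib differences of opposite sign, neither past the threshold with all libraries in.

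*Trp53inp1* (chromosome 4, 11156431 to 11174379), which encodes a stress protein of p53-driven arrest, death and autophagy, was the member called between the populations. In DP1 to DP3 it was at 2.45, 1.81 and 3.97 RPKM and in SP1 to SP3 at 1.22, 0.695 and 0.985. Under imatinib it was at 5.02, 4.94 and 3.01 RPKM in IMDP1 to IMDP3 and at 1.26, 3.43 and 1.27 in IMSP1 to IMSP3. Every DP library was above every SP library, and the IMDP and IMSP libraries overlapped only through IMSP2, which exceeded IMDP3. The gene rose in IMDP against IMSP by 1.20 on the log2 scale (SE 0.40, 2.30-fold, adjusted p = 0.0442) and in G0M+ against G0M- cells averaged over treatments by 1.29 (SE 0.28, 2.44-fold, adjusted p = 0.00775). DP against SP gave a difference of 1.37 (SE 0.40, adjusted p = 0.123), and the difference between these effects of -0.17 (95% interval -1.39 to 1.05) did not pass the threshold. The averaged call held in all 22 alternatives run for it, with adjusted p from 0.000861 to 0.0241. The IMDP against IMSP call held in 13 of 23: the same-numbered IMDP and IMSP libraries deviate together, and with replicate number as a block its adjusted p was 0.0636, while with library pair as the block it was 0.00656. It lay so near the threshold that leaving out any of 7 of the 12 libraries ended it (adjusted p up to 0.167, without IMSP1). In a bulk library, fewer cells with a transcript and less of it per cell cannot be told apart. The reads behind the gene ranged from 64 to 399 per library.

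*Sesn2* (chromosome 4, 132492032 to 132510501) encodes a stress protein that restrains mTORC1. Its RPKM was 3.15, 2.69 and 1.88 in DP, 1.33, 1.60 and 2.71 in SP, 2.16, 3.21 and 1.15 in IMDP and 0.921, 2.18 and 0.586 in IMSP. The groups overlapped in every comparison, and the lowest value of all was in IMSP3. G0M+ against G0M- cells averaged over treatments gave 0.66 (SE 0.32, adjusted p = 0.144). With library pair as a block this passed the threshold (adjusted p = 0.00737), as did IMDP against IMSP (0.85, adjusted p = 0.0117). Leaving out IMSP2 alone gave 0.90 (adjusted p = 0.0354) for the averaged difference and 1.33 (adjusted p = 0.0404) for IMDP against IMSP.

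*Btg2* (chromosome 1, 134075170 to 134079120), an antiproliferative gene that p53 and growth factor signals both switch on, had the widest span of the members detected in every library. Its RPKM was 26.1, 68.9 and 37.3 in DP, 23.7, 10.5 and 40.9 in SP, 5.98, 21.0 and 14.8 in IMDP and 3.40, 24.8 and 9.36 in IMSP. All IMDP libraries were below all DP libraries, and the IMSP and SP libraries overlapped through IMSP2. Averaged over populations, imatinib against vehicle gave -1.47 (SE 0.50, adjusted p = 0.153), and -2.01 (SE 0.46, adjusted p = 0.0446) without IMDP2 and IMSP2. The 10 genes of the immediate-early list summed to 486 to 673 RPKM in DP, 252 to 549 in SP, 223 to 301 in IMDP and 107 to 300 in IMSP, and the part of that signal in the *Btg2* values was not tested.

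*Ccng1* (chromosome 11, 40748552 to 40755311), which encodes cyclin G1, had group means within 8.35 to 9.72 RPKM. It was at 12.4, 8.29 and 6.92 RPKM in DP, 7.80, 9.10 and 8.15 in SP, 7.20, 12.8 and 6.09 in IMDP and 7.36, 16.6 and 5.19 in IMSP. IMSP2, IMDP2 and DP1 were the highest libraries and the others lay within 5.19 to 9.10. No comparison came near the threshold: the smallest adjusted p over the 7 comparisons was 0.904. The sign of 2 differences turned without IMSP2, where IMDP against IMSP went from -0.06 to 0.41 and IMSP against SP from 0.05 to -0.42.

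*Zmat3* (chromosome 3, 32334792 to 32366014) encodes an RNA-binding protein that is among the steadiest p53 targets across tissues. It was at 1.31, 0.708 and 1.01 RPKM in DP1 to DP3 and at 0.443, 0.443 and 0.448 in SP1 to SP3. Under imatinib it was at 0.486, 4.70 and 0.930 RPKM in IMDP and at 0.364, 4.54 and 0.447 in IMSP. Every DP library exceeded every SP library, and IMDP2 and IMSP2 exceeded all 10 others. IMDP2 was 5.05-fold above the next IMDP library and IMSP2 10.1-fold above the next IMSP library, on 568 and 419 reads against at most 167 elsewhere. Without these libraries, the averaged imatinib difference went from 0.68 (adjusted p = 0.589) to -0.29 (adjusted p = 0.626).

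*Phlda3* (chromosome 1, 135766119 to 135769136), which encodes an inhibitor of AKT, had the same high libraries. Its RPKM was 1.22, 0.566 and 0.783 in DP and 0.265, 0.0402 and 0.456 in SP. In IMDP it was 0, 2.29 and 0.362 and in IMSP 0.0776, 3.00 and 0.101. The libraries IMDP2 and IMSP2 held 50 reads each, against 28 or fewer in the others, and the 0 reads of IMDP1 allow a level of up to 0.158 RPKM (3 reads). DP was above SP in every library, with a difference of 1.59 (SE 1.25, adjusted p = 0.596). Counts this low limit what could be detected.

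*Aen* (chromosome 7, 78895854 to 78911209), which encodes an apoptosis-enhancing nuclease, was lower in the G0M+ than in the G0M- library of every library pair. Its RPKM was 3.09, 5.70 and 6.77 in DP, 6.83, 4.73 and 7.76 in SP, 10.0, 5.51 and 7.76 in IMDP and 11.0, 9.28 and 10.0 in IMSP. All IMSP libraries were above all SP libraries, and IMDP2 was the lowest imatinib library. The averaged imatinib difference was 0.64 (SE 0.21, adjusted p = 0.143) and the averaged difference between G0M+ and G0M- cells was -0.38 (SE 0.21, adjusted p = 0.185). *Aen* was not high in the libraries in which *Zmat3* and *Phlda3* were.

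The first comparison, DP against SP, asks what marks quiescent leukemia stem cells before treatment. limma called 0 of the 10 members at an adjusted p of 0.05, where 2.26% of all genes tested were called; 1 member (*Trp53inp1*) had an unadjusted p under 0.05, as 13.2% of all genes did, and limma-voom on recovered reads also called 0. For 3 members (*Trp53inp1*, *Phlda3* and *Zmat3*) all DP libraries lay above all SP libraries, against 9.68% of all genes in that direction. The median difference of the members was 0.34, beside -0.02 for all genes. In IMDP against IMSP, 1 member was called (*Trp53inp1*), where 25.6% of all genes were called and 2.37% were called higher, and 2 members (*Trp53* and *Trp53inp1*) had an unadjusted p under 0.05, against 39.7% of all genes. The members' median was 0.03 and that of all genes -0.25. *Trp53* was the member whose IMDP and IMSP libraries did not overlap, with IMDP lower, as for 32.8% of all genes. Averaged over treatments, *Trp53inp1* was again the 1 member called, against 26.3% of all genes (5.32% higher), and 1 member had an unadjusted p under 0.05 against 41.4% of all genes. The members' median of 0.40 stood beside -0.13 for all genes.

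**Figure D2:**
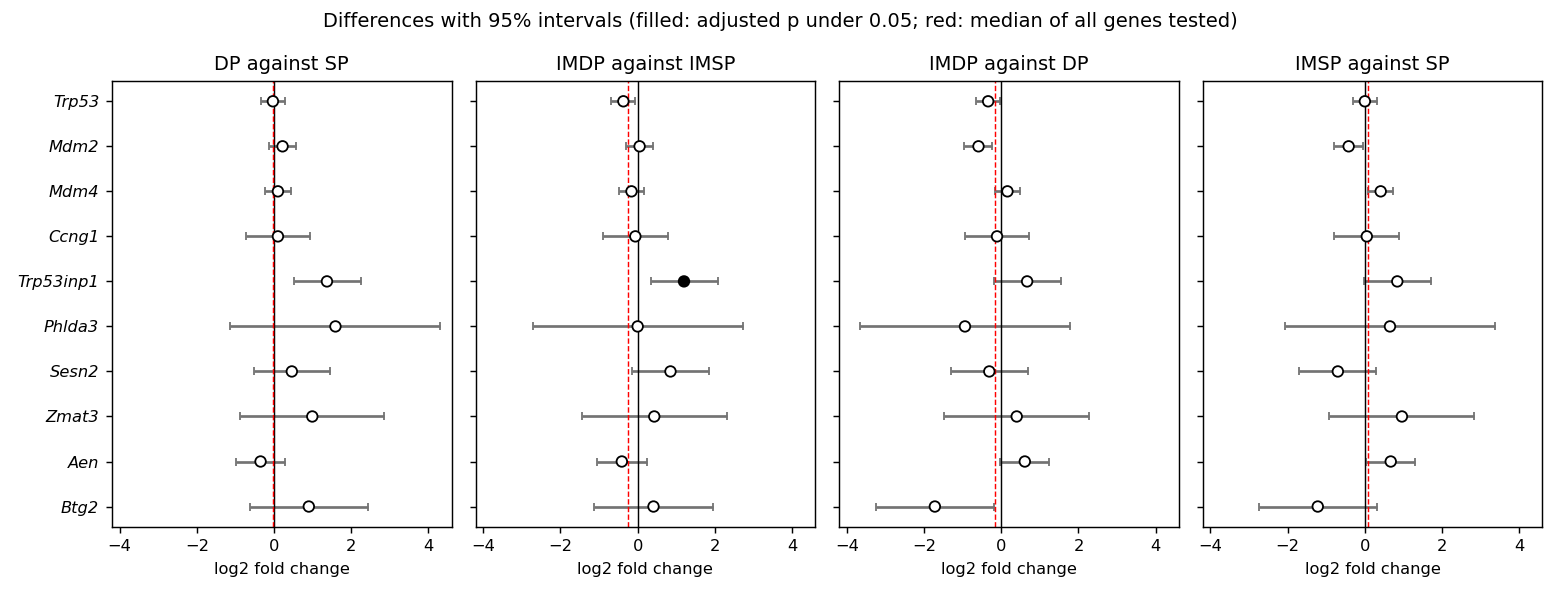
Log2 differences of the 10 genes in 4 comparisons (x axis, first group minus second on the log2(RPKM + 0.1) scale; bars, 95% intervals; filled points, adjusted p under 0.05; dashed red, median of all genes tested). Trp53inp1 in IMDP against IMSP (1.20, 95% interval 0.34 to 2.07) is the filled point; the Phlda3 interval in DP against SP runs from -1.13 to 4.31.

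The treatment comparisons ask what imatinib left or changed in each population. IMDP against DP called 0 members, against 0.367% of all genes, and 3 members (*Trp53*, *Mdm2* and *Btg2*) had an unadjusted p under 0.05, against 20.5% of all genes. The same 3 had all IMDP libraries below all DP libraries, as did 19.0% of all genes, with differences of -0.34, -0.59 and -1.72. The smallest adjusted p was that of *Mdm2* (0.101). IMSP against SP called 0 members, as it called 0% of all genes, with 3 members (*Mdm2*, *Mdm4* and *Aen*) at an unadjusted p under 0.05 against 8.39% of all genes. *Mdm4*, *Trp53inp1* and *Aen* had all IMSP libraries above all SP libraries, against 11.1% of genes, with differences of 0.41, 0.84 and 0.67. Averaged over populations, imatinib against vehicle called 0 members with all libraries in, against 0.854% of all genes, and 5 members had an unadjusted p under 0.05 against 18.0%. These were *Mdm2*, *Mdm4*, *Trp53inp1*, *Aen* and *Btg2*, the third of which was higher under imatinib by 0.76 (SE 0.28, adjusted p = 0.187). Without IMDP2 and IMSP2, *Mdm2* and *Btg2* were called, both lower, beside 3.66% of all genes (2.31% lower). limma-voom called 0 members in these 3 comparisons. The test of whether the population difference changed with treatment called 0 members and 0% of all genes; 0 members had an unadjusted p under 0.05, against 9.30% of all genes, and limma-voom also called 0. The smallest adjusted p among members was 0.578 (*Trp53*, -0.35, 95% interval -0.78 to 0.09).

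Within library pairs the population differences were easier to read. In each of the 6 pairs *Trp53inp1* was higher in G0M+ cells, by 1.44- to 3.99-fold, with the smallest ratio in the pair of IMDP2 and IMSP2. *Zmat3* was also higher in all 6, by 1.04-fold in that pair and by 1.33- to 2.96-fold in the others. *Aen* was lower in all 6, with ratios of 0.594 to 0.990. Thus 3 of the 10 members kept 1 direction in all pairs, against 36.2% of all genes. *Sesn2*, *Mdm2* and *Btg2* were higher in G0M+ cells in 5 pairs. The exception was the pair of DP2 and SP3 for *Sesn2* (0.993), and that of IMDP2 and IMSP2 for *Mdm2* (0.979) and *Btg2* (0.846). With library pair as a block, 6 members passed the threshold in the averaged population comparison, where 46.9% of all genes did (13.4% higher and 33.4% lower): *Trp53inp1*, *Sesn2*, *Zmat3* and *Btg2* were higher in G0M+ cells (0.71 with adjusted p = 0.0182 for *Zmat3*, 0.65 with adjusted p = 0.00516 for *Btg2*), and *Aen* (-0.38, adjusted p = 0.0191) and *Trp53* (-0.20, adjusted p = 0.0484) were lower. In DP against SP the block called *Trp53inp1* (adjusted p = 0.0164) and *Btg2* (0.90, adjusted p = 0.0259), beside 9.73% of all genes (4.17% higher). In IMDP against IMSP it called *Trp53inp1*, *Sesn2* and *Trp53* (adjusted p = 0.0170), the last of them lower, beside 44.1% of all genes (8.22% higher and 35.9% lower).

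**Figure D3:**
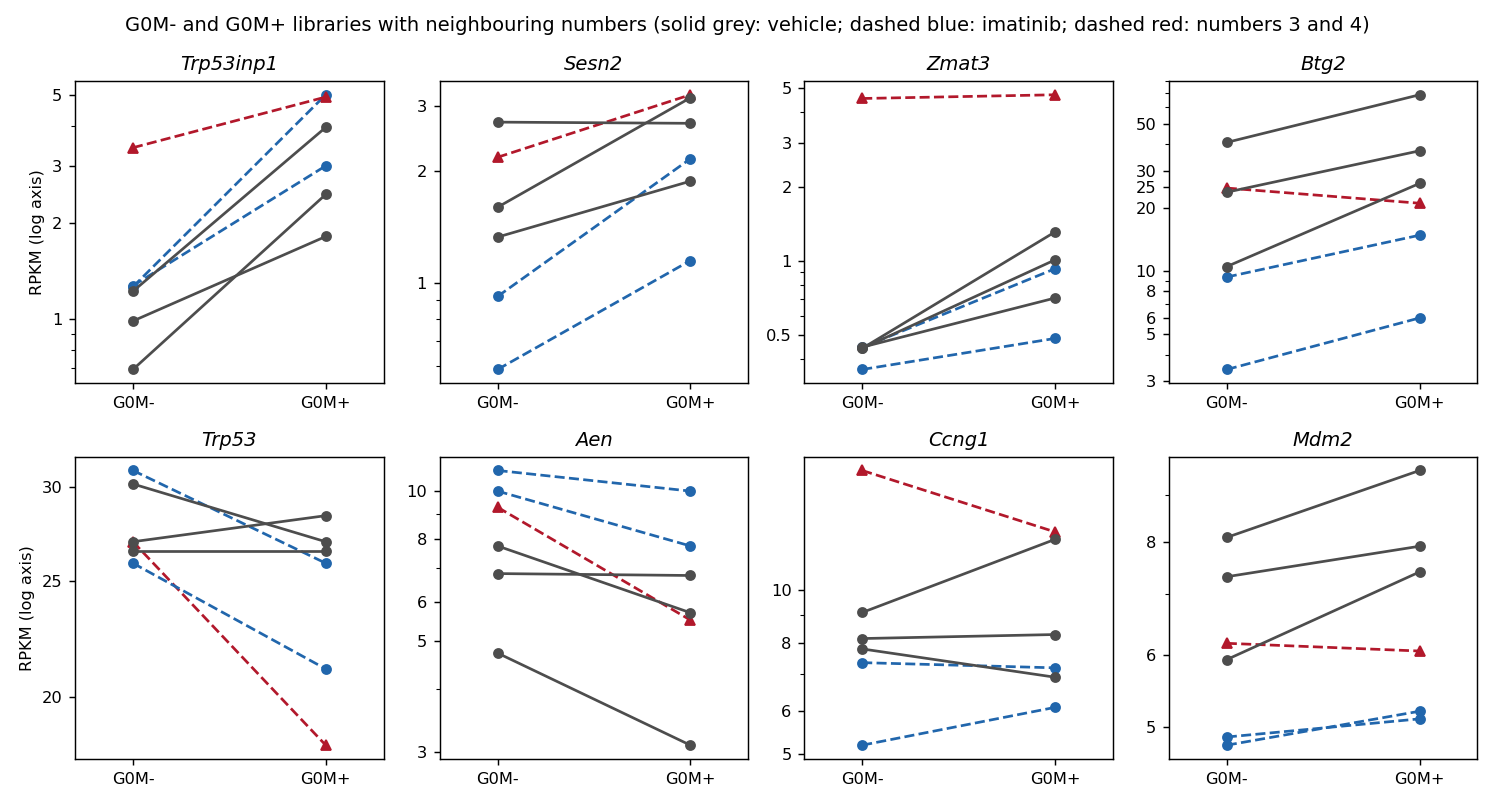
RPKM (log axis) of 8 genes in G0M- and G0M+ libraries with neighbouring numbers; each line is a pair, solid grey for vehicle, dashed blue for imatinib, dashed red for numbers 3 and 4. The 6 Trp53inp1 lines rise from G0M- to G0M+ and the 6 Aen lines fall, while for Zmat3 the red pair lies at 4.54 and 4.70 RPKM, above the other 5.

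How the spread of each gene over the 12 libraries divided differed by member. For *Mdm2*, 67.6% of the sum of squares of log2(RPKM + 0.1) lay between treatments, for *Mdm4* 46.1%, for *Aen* 40.7% and for *Btg2* 39.0%, against a median of 7.27% and a 90th percentile of 36.1% over all genes tested. For *Trp53inp1* the largest part, 54.2%, lay between populations, below the 90th percentile of 60.2% (median of all genes 22.4%). For *Ccng1* (91.6%), *Zmat3* (77.1%), *Phlda3* (73.8%) and *Sesn2* (54.8%) it lay between pairs of the same treatment, where the median of all genes was 34.5% and the 90th percentile 64.9%. *Btg2* (49.5%) and *Trp53* (30.5%) also had their largest share between pairs. The largest share was thus that of treatment (or library number) for *Mdm2*, *Mdm4* and *Aen*, of population for *Trp53inp1* and of library pair for the other 6 members. There are more pairs than treatments or populations, so noise alone gives the pair part a larger share, and these shares do not compare evenly. For *Trp53* the pair share lay below the median of all genes, with 24.8% between populations, so it does not show variation with library pair.

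The pair of IMDP2 and IMSP2 held the 2 highest of all 12 values for 3 members (*Ccng1*, *Phlda3* and *Zmat3*), as for 3.22% of all genes, and the 2 highest of the 6 imatinib values for 6 members (those 3 with *Mdm2*, *Sesn2* and *Btg2*), as for 9.53% of all genes. *Phlda3* reached 1 RPKM in DP1 and this pair only, and *Zmat3* in DP1, DP3 and this pair. Both thus passed the filter through these libraries, so their place in the counts was in part fixed by the filter. *Trp53* was not raised there: IMDP2 had its lowest value of the 12 libraries, 18.2 RPKM. Further measurements stand beside this. The totals were 14876571 reads for IMDP2 and 11367631 for IMSP2, the fewest of all. The summed proliferation markers were at 27.6 RPKM in IMDP2, inside the IMDP range, and at 383 in IMSP2, the highest of IMSP. The sorted-population markers summed to 84.0 and 98.9 RPKM, the lowest of their groups. Immediate-early genes summed to 301 RPKM in IMDP2 and 300 in IMSP2, the highest of their groups, and neutrophil and monocyte markers to 98.6 and 465, the lowest of theirs. Erythroid markers (72.9) and B cell markers (4.13) were the highest of IMSP in IMSP2, and lay within the IMDP range in IMDP2. Mast cell and basophil markers (45.6 and 7.92 RPKM) and macrophage markers (22.2 and 7.02) lay within the IMDP range in IMDP2 and were the lowest of IMSP in IMSP2. IMDP2 also had the lowest share of reads on listed genes, 25.9%, and the lowest median over the genes tested, 3.80 RPKM. The part of any of these in the high values was not tested. In the wider pathway list described below, this pair held the 2 highest of 12 values for 1 of 53 tested genes (1.89%, *Rrm2b*, beside 3.22% of all genes) and the 2 highest of the 6 imatinib values for 7 (13.2%, beside 9.53%). A pair of genes of that list under the filter, chosen after their values were seen, were also high there: *Eda2r*, a death receptor gene that p53 switches on, was at 1.40 RPKM in IMDP2 and 2.12 in IMSP2 against 0.0185 to 0.591 elsewhere, and *Cdkn2a*, whose ARF product inhibits MDM2, was at 0.651 and 1.24 RPKM against 0 in the other imatinib libraries and 0 to 0.562 in the vehicle libraries. Of the other listed genes under the filter, *Ak1* was also highest in both (1.64 and 0.906 RPKM, against 0.114 to 0.738 elsewhere). *Bbc3*, *Fas*, *Gls2* and *Ephx1* were not highest in both, and *Trp63* and *Trp73* were at 0 throughout.

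The wider pathway held 62 further listed genes, from damage kinases to arrest, death, repair and metabolic targets, of which 53 passed the filter. In DP against SP 3 of the 53 were called (5.66%, beside 2.26% of all genes): *Gtse1*, a mitotic gene that restrains p53, fell by 2.44 (adjusted p = 0.0275), *Btg1*, the antiproliferative relative of *Btg2*, rose by 1.11 (adjusted p = 0.0419) and *Prkdc*, the DNA-PK catalytic subunit, rose by 0.55 (adjusted p = 0.0407). Leaving out any of SP1, SP2, SP3, DP2 or DP3 ended all 3 calls. In IMDP against IMSP 13 were called (24.5%, beside 25.6% of all genes), 2 higher and 11 lower. *Btg1* (0.86) and the stress kinase gene *Plk3* (1.10) were higher. The lower ones included *Gtse1* (-3.60), the translesion polymerase gene *Polh* (-1.32) and 4 death genes, *Bax* (-0.71), *Pmaip1* (-2.09), *Apaf1* (-0.58) and *Pidd1* (-0.63). Scaling each library to the same median left 5 calls (9.43%, beside 15.5% of all genes), 3 higher and 2 lower. Without IMDP2 and IMSP2 there were also 5 (9.43%, beside 10.1% of all genes). Neither setting left a call among the death genes. Averaged over treatments 16 were called (30.2%, beside 26.3% of all genes), 6 higher and 10 lower, of which *Plk3* (0.98) and *Chek2*, a checkpoint kinase gene (-0.65), are examples. Median scaling turned this split to 9 higher and 5 lower (26.4%, beside 23.4% of all genes). Without IMDP2 and IMSP2, 4 were called higher and 4 lower (15.1%, beside 20.7% of all genes). IMDP against DP, IMSP against SP and the test of a changed population difference called 0 of the 53, by limma and by limma-voom, beside 0.367%, 0% and 0% of all genes. An unadjusted p under 0.05 was found for 13, 9 and 4 of the 53, beside 20.5%, 8.39% and 9.30% of all genes. For imatinib against vehicle *Plk3* was the 1 gene of the 53 called (-1.20, adjusted p = 0.0379), or 1.89%, beside 0.854% of all genes. It was at 6.39 to 7.01 RPKM in DP, 2.53 to 4.56 in SP, 2.77 to 3.90 in IMDP and 0.790 to 2.21 in IMSP. With replicate number as a block 0 of the 53 were called in this comparison.

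The best-known p53 targets of the wider list were mixed. *Cdkn1a*, the p21 gene, was at 22.7, 54.7 and 17.2 RPKM in DP, 13.0, 9.21 and 33.9 in SP, 9.39, 12.9 and 8.26 in IMDP and 6.43, 13.0 and 7.72 in IMSP. Every IMDP library was below every DP library, as for 19.0% of all genes, and the averaged imatinib difference was -1.17 (SE 0.35, adjusted p = 0.118). Its high vehicle libraries, DP2 and SP3, were those of *Btg2* and neighbours by number. *Bbc3*, which encodes the death factor PUMA, was at 0.141 to 1.10 RPKM and did not pass the filter. *Gadd45a*, a damage-response gene, was at 1.31 to 3.59 RPKM in DP, 1.94 to 3.76 in SP, 1.06 to 1.58 in IMDP and 1.65 to 1.95 in IMSP (averaged imatinib difference -0.74, adjusted p = 0.142). *Pmaip1* (NOXA) was at 0.481 to 1.27 RPKM in IMDP and 1.97 to 4.72 in IMSP, and *Bax* at 3.55 to 5.25 and 6.40 to 8.01. For each of these 2 genes all IMDP libraries lay below all IMSP libraries, as for 32.8% of all genes.

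**Figure D4:**
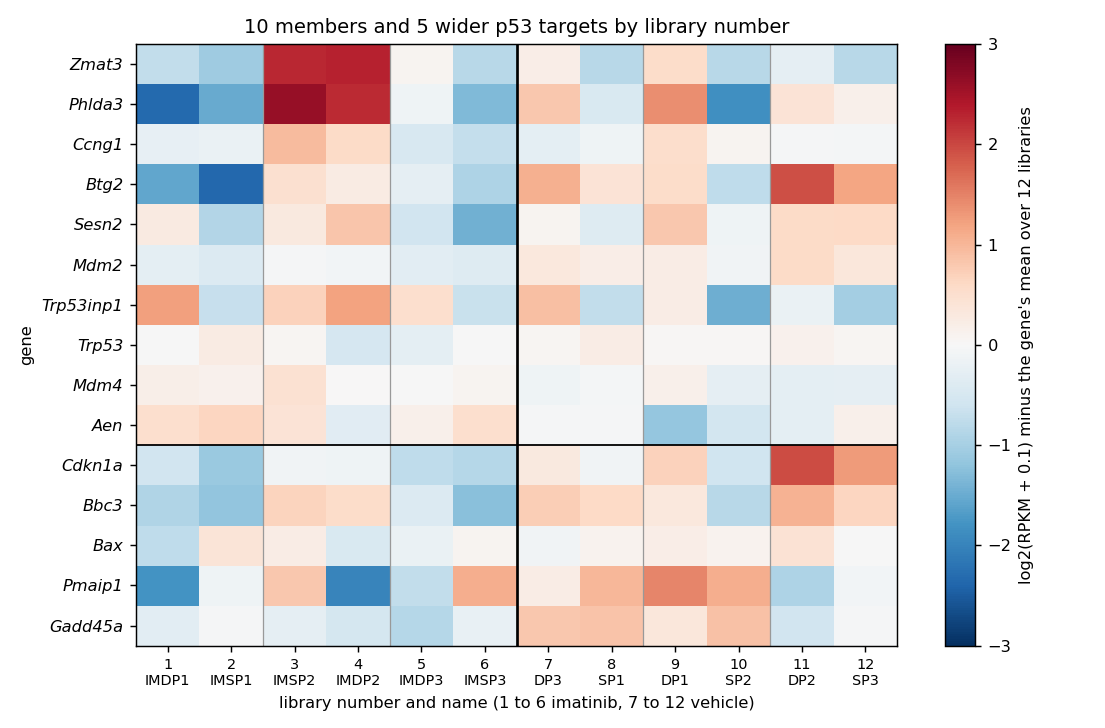
log2(RPKM + 0.1) minus the gene's mean over 12 libraries for the 10 members (above the line) and 5 wider targets (below), with libraries by number (x axis; 1 to 6 imatinib, 7 to 12 vehicle). Zmat3, Phlda3 and Ccng1 are highest in numbers 3 and 4, Btg2 and Cdkn1a in number 11, and Aen is lowest in number 9.

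Over the 12 libraries, the genes most like each member in log2(RPKM + 0.1) were described by Pearson's r, with no test, since the libraries share treatment and pair. *Mdm2* was closest to *Klf10* (0.99) and *Tsc22d2* (0.98), and *Btg2* to *Skil* and *Dennd4a* (0.97 each). These values were 0.98 or more without IMDP2 and IMSP2. *Klf10* was at 15.5 ± 6.33 RPKM in DP and 5.22 ± 1.51 in IMDP (SD, n = 3). *Sesn2* was closest to *Ecm1* (0.97) and *Ptgs2* (0.96), *Trp53* to *U2af2* and *Snx5* (0.95 each), *Trp53inp1* to *Trim34a* (0.95) and *Bcl11a* (0.94), *Phlda3* to *Clca3a1* (0.93) and *Slc16a7* (0.92), *Mdm4* to *Clcn3* (0.92) and *Trmt44* (0.91), *Aen* to *Cd180* (0.90) and *Tbc1d5* (0.86), and *Ccng1* to *Vcl* (0.88) and *Xpr1* (0.86). *Zmat3* was closest to *Orc4* at 0.93, which was 0.59 over the 10 libraries without IMDP2 and IMSP2. Over these 10 libraries *Ccng1* gave 0.70 with *Vcl* and 0.77 with *Xpr1*, and *Phlda3* 0.88 with *Clca3a1* and 0.82 with *Slc16a7*. *Mdm4* gave 0.85 with each of its 2 genes, and *Trp53* 0.88 with *U2af2* and 0.89 with *Snx5*.

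By mean level, *Mdm2* and *Btg2* ran in the order DP, SP, IMDP and IMSP, and *Sesn2* in the order DP, IMDP, SP and IMSP. *Trp53inp1* ran IMDP, DP, IMSP and SP, *Zmat3* IMDP, IMSP, DP and SP, and *Phlda3* IMSP, IMDP, DP and SP. *Aen* ran IMSP, IMDP, SP and DP, *Mdm4* IMSP, IMDP, DP and SP, *Ccng1* IMSP, DP, IMDP and SP, and *Trp53* IMSP, SP, DP and IMDP. Neighbouring groups in these orders overlapped in their libraries, except the lowest from the next for *Trp53*, *Trp53inp1*, *Phlda3* and *Zmat3*. The orders of *Zmat3*, *Phlda3* and *Ccng1* rested on IMDP2 and IMSP2. Without them *Ccng1* was at 6.09 to 7.20 RPKM in IMDP and 5.19 to 7.36 in IMSP, below its DP and SP means (9.19 and 8.35). *Zmat3* was then at 0.486 to 0.930 and 0.364 to 0.447, below its DP mean of 1.01. *Phlda3* was at 0 to 0.362 and 0.0776 to 0.101, below its DP mean of 0.856. *Sesn2* was at 1.15 to 2.16 in IMDP, beside an SP mean of 1.88.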

How the data were processed

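RNA-seq was made from 100 sorted cells per library with not-so-random primers and Nextera XT, and no strand was stated, so reads of overlapping or antisense genes cannot be told apart. The authors deposited RPKM values per feature for each of the 12 libraries, on GRCm38 (mm10). The study's methods name CLC Genomics Workbench, its reporting form names HISAT2 and featureCounts, and the submitters' processing notes name edgeR, so which mapper made these values is not certain. Numbered copies of a gene were summed (1934 genes). Since low RPKM values are whole multiples of the worth of 1 read, reads were recovered for all 17735 features above 0 (tolerance 0.01 reads). The main test was limma 3.58.1 with a mean-variance trend in R 4.3.3 on log2(RPKM + 0.1), for the 10072 genes at 1 RPKM or more in at least 3 libraries, with 4 group means. Adjusted p-values are Benjamini-Hochberg values over all these genes, with a threshold of 0.05. Intervals are 95% intervals of the fit. Tests were checked on simulated data.

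The named genes were the 10 members, the wider-list genes past the threshold in the comparison described (at most 10 by adjusted p) with *Cdkn1a*, *Bax*, *Bbc3*, *Pmaip1* and *Gadd45a*, *Mki67*, *Kit*, *Ly6a* and *Cd27* as checks of the sort, and for each member the 2 genes with the highest Pearson's r. Besides these, *Rrm2b* was named for its values in IMDP2 and IMSP2, *Eda2r*, *Cdkn2a* and the other wider-list genes under the filter after their values were seen, and marker genes where they were at 0 throughout. Members and lists were chosen with earlier results of these data known. The pairing of libraries was checked by the correlation of deviations from group means. It was 0.43, 0.65 and 0.46 for same-numbered IMDP and IMSP libraries, -0.30 to -0.10 for DP and SP by replicate number, and 0.50 to 0.52 for DP and SP by neighbouring library number in the sample descriptions. Alternatives were other pseudocounts (1 and 0.01), filters, median scaling, the compared groups alone, both blocks, voom on recovered reads, copies kept apart and each library left out. Leaving out IMDP2 and IMSP2 together was added after seeing the data. Promoter windows and coordinates came from RefSeq (GRCm38.p6) and GENCODE M21. Matching used Python 3.11.15, pandas 2.3.3 and matplotlib 3.10.9.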

Additional observations from a re-analysis of the deposited data

How the results depend on the processing

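Of 1533 recomputed member values, 1496 kept direction and side of the threshold, 18 gained the threshold, 10 lost it and 9 turned sign. With replicate number as a block (the replicate block), IMDP against IMSP called 0 members, beside 27.6% of all genes. The wider list then had 1 call in DP against SP, beside 2.38% of all genes, and 0 for imatinib against vehicle, beside 0.586%. The pairing by neighbouring library number, as a block, called 2 members in DP against SP, 3 in IMDP against IMSP and 6 averaged over treatments, with 8, 18 and 25 of the 53 wider-list genes, beside 9.73%, 44.1% and 46.9% of all genes. Without a filter, or with only the groups compared, IMDP against IMSP called 0 members. For the wider list, DP against SP then had 1 and 0 calls. IMDP against IMSP had 7 with only the groups compared, and imatinib against vehicle 0 without a filter. A pseudocount of 1 and voom on recovered reads gave 2 wider-list calls each for imatinib against vehicle. Except for the 2 blocks, the share of all genes called is not given for these settings.

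Leaving out 1 library gave 0 to 1 members in DP against SP, 0 to 2 in IMDP against IMSP, 1 to 2 averaged over treatments and 0 to 1 for imatinib against vehicle. For the wider list it gave 0 to 3 in DP against SP, 5 to 13 in IMDP against IMSP, 7 to 16 averaged over treatments and 0 to 3 for imatinib against vehicle. The share of all genes called with 1 library left out is not given. Without IMDP2 and IMSP2 (chosen after seeing the data), imatinib against vehicle called 2 members and 4 wider-list genes, beside 3.66% of all genes. The wider list then had 5 calls in IMDP against IMSP (9.43%, beside 10.1% of all genes) and 8 averaged over treatments (15.1%, beside 20.7%).

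Median scaling changed the split of calls over all genes in IMDP against IMSP from 2.37% higher and 23.3% lower to 6.30% and 9.18%, and averaged over treatments from 5.32% and 21.0% to 11.1% and 12.4%. It left 5 wider-list calls in IMDP against IMSP and turned *Mdm4* to 0.12 there and to 0.13 averaged over treatments. Without IMSP2, *Ccng1* turned to 0.41 and *Phlda3* to 1.34 in IMDP against IMSP, and *Ccng1* turned to -0.42 and *Zmat3* to -0.11 in IMSP against SP, with the same values there when IMDP2 was left out too (ranges over single libraries left out: *Ccng1* -0.42 to 0.41 in both comparisons, *Phlda3* -1.16 to 1.34, *Zmat3* -0.11 to 1.55). *Zmat3* turned to -0.29 for imatinib against vehicle without both. The cause was not tested. *Phlda3* rested on 0 to 50 reads per library, which limits what could be detected. An exact permutation test of 3 against 3 libraries cannot go below 0.1, so none was used for single genes.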
